A study of Parasteatoda tepidariorum with 12 samples.

Results

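Homeobox and paired box transcription factors were followed through the early embryo of the common house spider *Parasteatoda tepidariorum*. They were taken from the deposited count table as the gene models whose description contains homeobox, homeotic or paired box, and 6 gene models were left out by their identifiers. The words were found in the descriptions of 153 of 27990 gene models, and 148 remained without the 5 of the 6 that held them. Whole embryos had been taken for RNA sequencing 11 h (stage 2), 20 h (stage 3) or 31 h (early stage 5) after the eggs were laid. Embryos of 2 mated females were used, and each library held pooled embryos of 1 female. For each female and treatment the labels give the same day for all 3 stages. These 3 libraries may thus share an egg sac, which the tests below did not model. Untreated embryos came from egg sacs laid before the first injection of the mother. The *fuchi* pRNAi embryos came from egg sacs that the same females produced 18 days (female 2) or 19 days (female 1) after that injection. In parental RNAi (pRNAi), double-stranded RNA given to the mother depletes a transcript in her later eggs, here that of *fuchi nashi* (*fuchi*, g26874), a gene for a GATA-like factor. Treatment and day of laying therefore went together and cannot be told apart, and the 12 libraries hold no embryos of mothers injected with another double-stranded RNA.

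A homeobox encodes the homeodomain, a DNA-binding fold that sits in many regulators of body pattern. A paired box encodes the paired domain of the Pax proteins, a separate DNA-binding domain. Hox genes give segments their identity along the head-to-tail axis, and spiders carry duplicated Hox clusters. The TALE class, among them Extradenticle and Meis proteins, includes partners with which Hox proteins bind DNA. The descriptions come from similarity to proteins of other animals, so roles given below are those known in flies, worms or vertebrates, and not roles shown in the spider.

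By the words of their descriptions, the members fell into 34 paired and paired-like models, 34 ANTP-like models outside the Hox cluster (such as engrailed, Msx and Dlx), 21 Hox models, 12 TALE models, 11 LIM, 6 zinc finger homeobox, 5 sine oculis-like and 4 cut-like models. A further 18 had descriptions without such a class word. The remaining 3 were polyhomeotic-like proteins, which are subunits of a Polycomb repressive complex and no homeodomain proteins, and were caught by the word homeotic. Gene models are not always genes: 30 members shared 14 NCBI gene entries, and the 148 models stood for 132 entries. The 3 models g13538, g27747 and g27748 all carry the entry of 1 extradenticle-like gene, for example, and g13867 and g13868 lie on scaffold 1742 of the Ptep_1.0 assembly on the same strand and share the entry of Meis2.

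Most members were scarce. Over the 12 libraries 10 members had no count, 45 had fewer than 10 counts in all, and 20 had more than 1000. In each library the members together took 0.146% to 0.238% of the counts, of library totals between 5662766 and 8857990. At these totals 3 counts were worth 0.339 to 0.530 CPM (counts scaled to a common library total), and this floor covers counting error alone. A gene model was tested when it reached 1 CPM in at least 1 library of the comparison. At stage 2 this kept 41 members, at stage 3 72 members, at early stage 5 60 members, and 82 in the fit of all 12 libraries. The TALE class was kept nearly whole, with 12 of 12 models in the 12-library fit, against 12 of 21 Hox models, 17 of 34 paired and paired-like models and 10 of 34 ANTP-like models.

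The target of the knockdown served as the check of the labels. Counts of *fuchi* were lower after knockdown in both females at each stage, at 20.7%, 23.8% and 38.0% of the untreated mean CPM at stages 2, 3 and early 5. The endoderm marker Pt-GATA4 (g25261) went from 243 and 252 untreated counts to 2 and 0 after knockdown at early stage 5, and Pt-GATA5 (g8337) from 147 and 138 to 0 and 9. In whole embryos fewer cells of a type and less RNA per cell cannot be told apart, and the part that such lost cells had in the values below was not tested. The spread below is that between the 2 females.

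Levels were compared between members per length, in RPKM as deposited (reads scaled to the length of the transcript and to the mapped reads of the library). TALE members led at each stage. In untreated stage 2 embryos the extradenticle-like model g27748 stood first, at 135 ± 56.2 RPKM (mean ± SD, n = 2), followed by g10009, a TALE model described after the yeast repressor CUP9, at 87.3 ± 14.2 RPKM. Their ranges overlapped, so their order was not set beyond the spread. Meis1 (g3111) at 65.3 ± 12.1 RPKM, the extradenticle-like model g27747 at 57.9 ± 17.3 RPKM and the Hox-B4-like model g15608 at 47.6 ± 18.9 RPKM came next, each overlapping its neighbour. At stage 3 g10009 was the most abundant member, with 220 and 157 RPKM in the females, above both values of every other member. DLX-6-like g15531, of the family that drives limb outgrowth in flies and vertebrates, followed at 71.7 ± 4.07 RPKM and overlapped g27748 at 67.9 ± 8.40 RPKM. Meis1 and g27747 had 50.7 ± 2.14 and 37.4 ± 17.2 RPKM at this stage. At early stage 5 the first 5 members overlapped in a chain, from g27748 at 85.6 ± 6.84 RPKM through Meis1 at 79.6 ± 13.4, Meis2 (g13867) at 77.1 ± 15.8 and extradenticle (g20467) at 56.0 ± 14.7 to g15531 at 49.1 ± 0.983 RPKM.

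**Figure D1:**
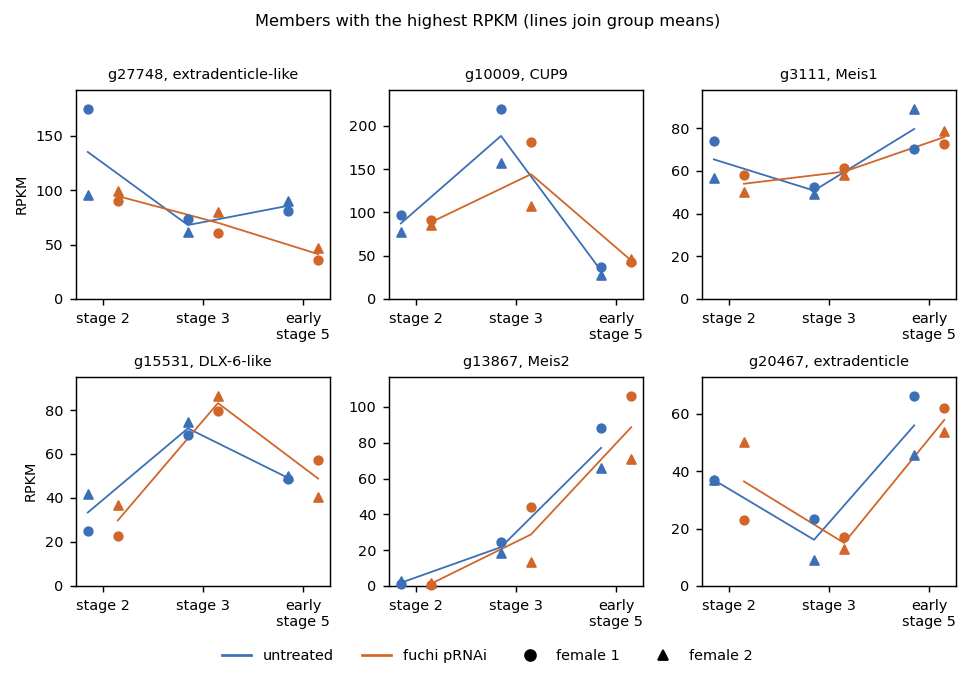
RPKM (vertical axis, linear) of 6 abundant members at the 3 stages, with circles for female 1, triangles for female 2, blue for untreated and orange for *fuchi* pRNAi, and lines through group means. The untreated mean of g10009 peaked at stage 3 with 188 RPKM, and that of Meis2 (g13867) was highest at early stage 5 with 77.1 RPKM.

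Between stages 2 and 3 of untreated embryos, members of several classes switched on. The change was tested in 1 edgeR fit of the 12 libraries for being larger than 2-fold (adjusted p under 0.01). Of 82 members 6 rose, or 7.32%, where 8.47% of all 14498 tested gene models did, and 1 fell, where 7.81% of all did. The share of members that rose was thus near the background, and the share that fell was below it. With the female as a block 12 members rose and 2 fell, where 10.9% and 9.62% of all gene models did.

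The orthopedia-like model g16467, of a family needed for hypothalamic neurons in vertebrates, had no count in the untreated stage 2 libraries and 54 and 43 counts at stage 3. This put stage 3 at least 42.1-fold higher, with 3 counts over the stage 2 group as the floor (adjusted p = 0.000277). Only 6 and 4 counts were left in the untreated early stage 5 libraries, so its high untreated values were those of stage 3. The *fuchi* pRNAi libraries of early stage 5 held 23 and 13 counts (unadjusted p under 0.05 by edgeR, not called). It reached 1 CPM at that stage in *fuchi* pRNAi embryos alone, so this p is a description. At stage 3 the *fuchi* pRNAi libraries held 61 and 18 counts of it, below both untreated values in CPM and not called. The Lhx1-like LIM model g12957, of a family needed for the head in mice, went from no count to 29 and 20 (at least 21.3-fold higher, adjusted p = 0.00652). The model g14840, described as homeobox protein 2-like, went from no count to 10 and 10 (at least 8.68-fold higher, adjusted p = 0.00492). These 3 transcripts were thus unseen in the untreated stage 2 libraries, which allows up to the floor given above. They were lower again in both untreated early stage 5 libraries, but that fall was not called for any of them. The other model with the NCBI entry of g12957, g16539, had 0 and 1, then 15 and 11, then 3 and 1 untreated counts. Its rise was called with the female as a block alone. The calls of g12957 and g14840 were lost when any 1 of the 4 libraries was left out (adjusted p up to 0.0445 and 0.0339), and that of g16467 in no case.

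A second pattern was a rise that went on. The engrailed-like model g15243, described after worm *ceh-16* and of the family that keeps segment boundaries in flies, had 4 and 3 counts at stage 2, 79 and 27 at stage 3 and 533 and 634 at early stage 5. Its log2 change was 4.21 ± 0.56 (SE) from stage 2 to stage 3 (adjusted p = 0.000296) and 3.71 ± 0.41 from there to early stage 5 (adjusted p = 0.000145). No 2 of the 3 untreated groups overlapped, and without the first stage 3 library the changes were 3.33 and 4.53 with both calls kept. Both models of Meis2 rose with it: g13867 had 21 and 47, then 526 and 350, then 2137 and 1174 counts, and g13868 had 12 and 21, then 182 and 121, then 639 and 338 counts. From stage 2 to stage 3 their log2 changes were 3.99 ± 0.61 and 3.52 ± 0.63. Their further rise to early stage 5 did not pass the test. Without the second untreated stage 2 library the changes were 4.91 and 4.18. Without the first untreated stage 2 library the change of g13867 was 3.38 and its call was lost (adjusted p = 0.0111), and that of g13868 was lost without it (0.0338) or without the first stage 3 library (0.0139).

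The single member that fell from stage 2 to stage 3 in untreated embryos was the polyhomeotic-like model g17727, with 649 and 392 counts at stage 2 and 100 and 29 at stage 3 (log2 change -2.65 ± 0.42, adjusted p = 0.00181). The call was lost without the first stage 2 library (adjusted p = 0.0124) or the second stage 3 library (0.0128), and the change was -3.70 without the first stage 3 library. The MSX-2-like model g4533 and g17727 were those that fell with the block (for g4533 the adjusted p was 0.0112 without and 0.00389 with it).

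From stage 3 to early stage 5, 2 of 82 members rose (2.44%, where 2.48% of all tested gene models did) and 1 fell (where 4.67% of all did). With the block 3 rose, the added one being the Pax-5-described model g762, and 1 fell, where 3.67% and 6.01% of all gene models did. Beside g15243, extradenticle g20631 rose from 232 and 117 to 1104 and 724 counts (log2 change 2.59 ± 0.32, adjusted p = 0.000846). The other model with the same NCBI entry, g20467, had 143 and 49 counts at stage 3 and 465 and 235 at early stage 5 and did not pass the test. The CUP9-described model g10009 fell from 2695 and 1697 to 513 and 287 counts (log2 change -2.28 ± 0.29, adjusted p = 0.00156), and its groups did not overlap. The call of g20631 was lost without the second stage 3 library (adjusted p = 0.0126), and that of g10009 without the first stage 3 library (0.0160) or the second early stage 5 library (0.0241).

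The same steps were tested in *fuchi* pRNAi embryos. From stage 2 to stage 3, 6 members rose (7.32%, where 5.32% of all tested gene models did) and 0 fell by the edgeR test, where 5.76% of all gene models did (the block gave 10 that rose and 1 that fell, the polyhomeotic-like g17727, where 7.25% and 7.35% of all did). At an unadjusted p under 0.05, 2 members fell (where 12.9% of all did), and DESeq2 called 0 that fell. Of the 6, 5 were among those that rose in untreated embryos, namely g15243, g13867, g13868, g16467 and g14840. The sixth was the Hox-B4a-like model g1787, with 4 and 7 counts at stage 2 and 297 and 57 at stage 3 (log2 change 4.87 ± 1.01, adjusted p = 0.00595), and the call held in 1 of 4 fits with a library left out (adjusted p up to 0.0577), the change being 3.71 without the first stage 3 library and 5.49 without the second. The call of g14840 held in 0 of these 4 (adjusted p up to 0.0636), and that of g16467 was lost without the first stage 2 or the first stage 3 library (0.0249 and 0.0247). In untreated embryos g1787 had 9 and 14, then 120 and 40 counts (adjusted p = 0.0433, and 0.00870 with the block). From stage 3 to early stage 5 g20631 and g15243 rose again in *fuchi* pRNAi embryos (2.44%, where 2.20% of all tested gene models did), and 0 members fell by the edgeR test, where 5.56% of all did (4 at an unadjusted p under 0.05, where 13.9% of all did, and 0 by DESeq2). With the block 4 rose, the others being g20467 and g762, and 0 fell, where 3.20% and 6.81% of all gene models did. g10009 had 2769 and 1152, then 647 and 438 counts in these embryos. Whether the steps differed between treatments was asked by the difference of the knockdown effect between neighbouring stages, and by the edgeR test 0 of 82 members were called for either difference. For stage 3 minus stage 2, 0% of all gene models were called, and with the block 0.0552% were called lower and 0.00690% higher, with 0 members among them. For early stage 5 minus stage 3, 0.228% were called lower and 0.0414% higher (0.607% and 0.0759% with the block), again with 0 members. DESeq2 called 0 members in both, and at an unadjusted p under 0.05 there were 4 (4.88%, where 4.21% of all were) and 11 (13.4%, where 7.79% of all were). The member with the smallest p in both was g4533.

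**Figure D2:**
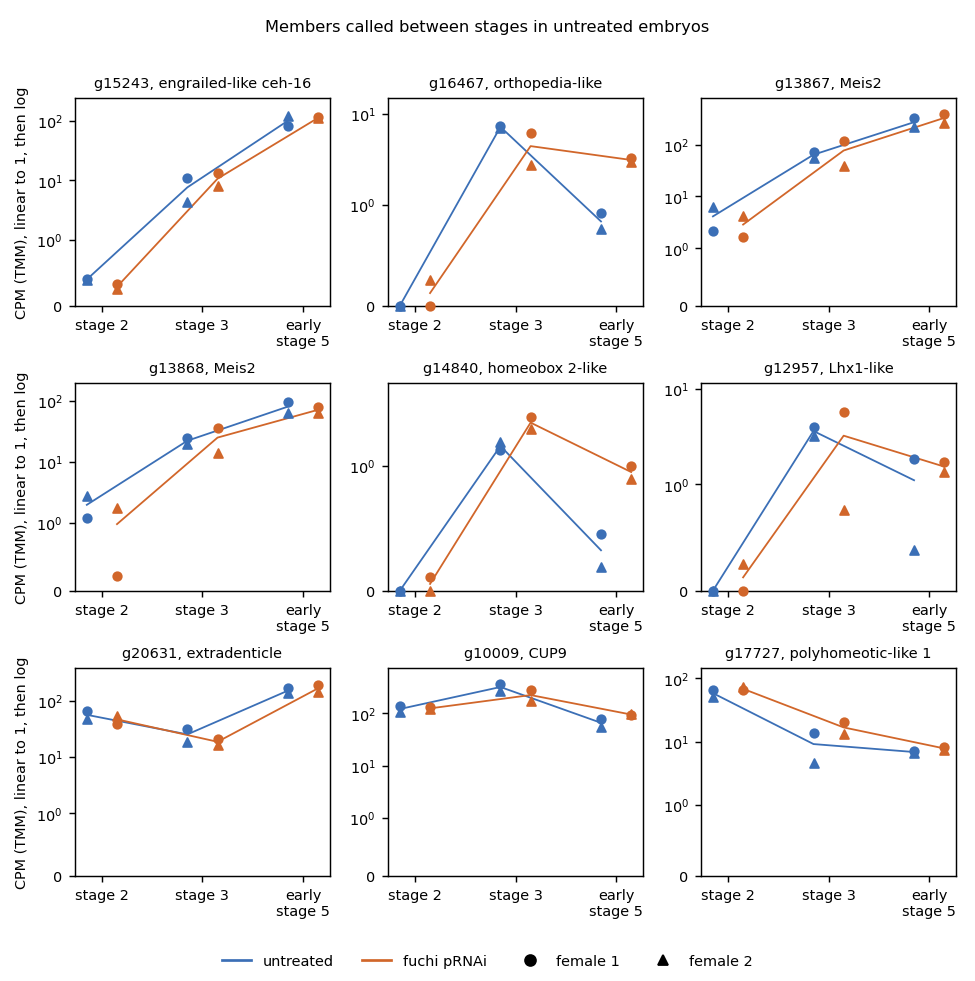
CPM with TMM factors of the 12 libraries (vertical axis, linear from 0 to 1 and logarithmic above) for the 9 members that were called between neighbouring stages in untreated embryos; circles are female 1, triangles female 2, lines join group means. g15243 climbed over both steps, from 4 and 3 to 533 and 634 untreated counts, while g16467, g14840 and g12957 were highest at stage 3.

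Most Hox members were sparse at all 3 stages. The Hox-A1-like model g7954, left out by the rule, was not. It had 358 and 630, then 1608 and 1317, then 1728 and 1092 untreated counts in stage order. Of 21 models described as Hox proteins 12 passed the filter in the 12-library fit, and an ultrabithorax-like model, g25359, had no count in any library. Among these 21 members the Hox-B4-like model g15608 was the most abundant. It had 467 and 618 counts in untreated stage 2 embryos, 250 and 106 at stage 3 and 303 and 122 at early stage 5. In CPM the stage 2 and early stage 5 values of female 1 were close (47.1 and 46.1), and in female 2 stage 2 was the highest (80.7 against 17.1 and 23.0). It lies on scaffold 48 (Ptep_1.0, positions 1370643 to 1418916, plus strand), which also holds models of abdominal-A, ultrabithorax, antennapedia and Hox-A5-like proteins. Their counts were of another order: g15592 and g15593 (abdominal-A) had 6 and 1 over all 12 libraries, the antennapedia-like g15600 and g15601 had 7 and 29, and the Hox-A5-like g15606 had 30. The antennapedia-like g15601 differed by female. In stage order female 2 had 4, 2 and 0 counts in untreated and 7, 14 and 1 in *fuchi* pRNAi libraries, where female 1 had 1 count in all, in the *fuchi* pRNAi library of stage 3.

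Hox models differed in the stage of their highest untreated counts, but none was called between untreated stages without the block. The proboscipedia model g7953, of the mouthpart gene in flies, had 3 and 6, then 1 and 5, then 53 and 16 untreated counts. For the Hox-B4a-like g1787 the counts given above were followed by 109 and 45 in untreated early stage 5 embryos. The abdominal-B model g9048 on scaffold 985 had 3 and 2 untreated and 2 and 4 *fuchi* pRNAi counts at stage 2 and at most 1 in any later library. It was under the filter and was not tested. The ceh-13-like model g7582, described after the worm relative of labial, was higher in *fuchi* pRNAi than in untreated embryos at stage 2 (28 and 22 against 2 and 9 counts) and at stage 3 (16 and 14 against 5 and 1). It was not called at either stage (log2 change 2.06 ± 0.91 and 2.06 ± 0.97, adjusted p = 0.983 and 0.555, edgeR). At stage 3 it reached 1 CPM in *fuchi* pRNAi embryos alone, so the p of that stage is a description. The Hox-A5-like g15606 had 6 and 13 untreated counts at stage 3 against 2 and 2 in *fuchi* pRNAi embryos (adjusted p = 0.532). That model reached 1 CPM at stage 3 in untreated embryos alone, so its p is a description too. The remaining models that passed the filter, Hox-C10-like g15983, Hox-A9b g25355, Hox-A5 g17640, Hox-A1 g27130 and Hox-B10a g6223, had 0 to 26 counts in each library and were not called in any comparison.

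**Figure D3:**
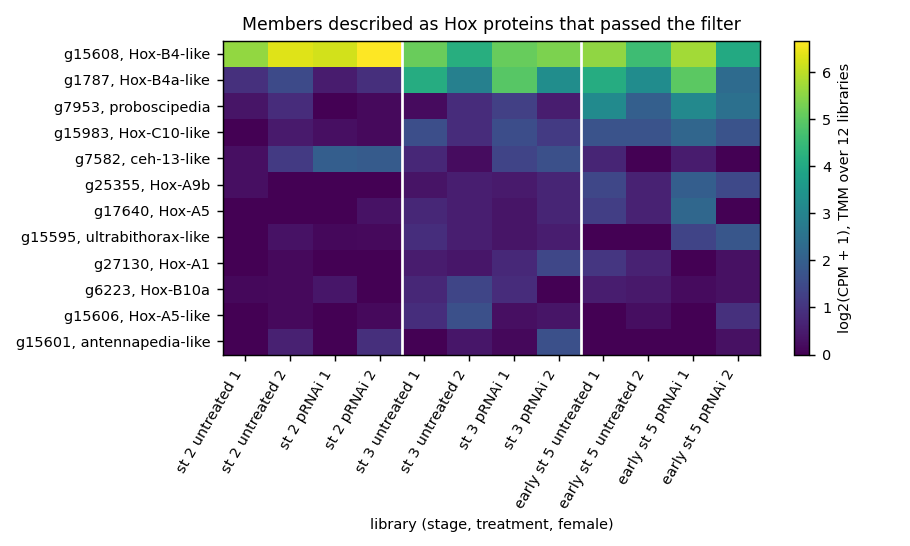
Levels of the 12 Hox-described members that passed the filter, as log2(CPM + 1) with TMM factors of the 12 libraries (colour), ordered by mean level; columns are libraries by stage, treatment and female. The Hox-B4-like g15608 was the highest of the 12 in every library, and g1787 came nearest in the *fuchi* pRNAi library of female 1 at stage 3 (297 against 338 counts).

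The knockdown effect was tested stage by stage in 4 libraries each by the quasi-likelihood test of edgeR, and called where p adjusted over all gene models tested was under 0.01. At stage 2, 0 of 41 members were called, as were 0% of all 12079 gene models. The target *fuchi* itself, at 20.7% of the untreated mean CPM, was not called there (adjusted p = 0.983, edgeR quasi-likelihood). The likelihood ratio test and DESeq2 did call it (adjusted p = 0.00779 and 0.00102). The 0 therefore does not show that members were unchanged. An unadjusted p under 0.05 was found for 2 members that were lower (4.88%, where 1.61% of all gene models were) and 1 that was higher (2.44%, where 1.81% were). The likelihood ratio test and DESeq2 called 0 members there, and 0.0331% and 0.108% of all gene models in either direction. At stage 3, 0 of 72 members were called, where 0.270% of all gene models were called lower and 0% higher. Here *fuchi* was called (adjusted p = 0.00552, edgeR), but Pt-GATA5, at 26.5% of the untreated mean CPM, was not (adjusted p = 0.146). Members with changes of that size could likewise be missed. At an unadjusted p under 0.05, 2 members were lower and 2 higher (2.78% each, where 5.61% and 3.69% of all gene models were), and the likelihood ratio test and DESeq2 again called 0 members, where they called 1.06% and 0.968% of all. The last stage had 1 of 60 members called higher, where 0.162% of all gene models were, and 0 were called lower, where 2.96% of all were. In unadjusted terms 9 members (15.0%) were higher with p under 0.05 where 4.22% of all gene models were, and 2 (3.33%) were lower where 9.79% were. DESeq2 called 2 members higher and 1 lower at early stage 5, where it called 0.413% and 3.95% of all gene models, and the likelihood ratio test called 7 in either direction (11.7%), where it called 6.74% of all.

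Each female gave both treatments, and a fit with the female as a block called 2 members lower at stage 2 (4.88%, where 0.497% of all gene models were) and 0 higher (where 0.273% were), 1 higher at stage 3 (1.39%, where 0.600% were) and 0 lower (where 2.00% were), and 5 higher and 1 lower at early stage 5 (8.33% and 1.67%, where 1.47% and 6.51% were). The median log2 change of tested members was 0.03, 0.14 and 0.26 at stages 2, 3 and early 5, beside 0.01, 0.01 and -0.01 over all gene models tested, and 70.0% of members were above 0 at early stage 5 where 48.8% of all were. Forkhead, SOX, T-box, GATA, ETS and bHLH factors, chosen by description words without *fuchi* itself (40 tested of 85), had a median of 0.00 at that stage, with 1 called lower, Pt-GATA5, and 0 higher. Pt-GATA4 is described as uncharacterized and so is not in this set. It was called lower at that stage (log2 change -7.84 ± 0.55, adjusted p = 5.42e-05, edgeR).

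The members that entered the early stage 5 test were not evenly drawn. Of the 60, 42 reached 1 CPM in both treatments, 2 in untreated embryos alone and 16 in *fuchi* pRNAi embryos alone, which is 26.7% where 4.46% of all tested gene models did the last. A model that passed in this way had to be higher after knockdown, so the shares above are a description. Of the members higher at an unadjusted p under 0.05 (edgeR), only g25763 and the homeobox-containing protein 1 model g16446 reached 1 CPM in both treatments. Of those called higher with the block, g25763 alone did. In 20 members both *fuchi* pRNAi values lay above both untreated ones (33.3%, where 19.7% of all gene models did), and in 3 they lay below (5.00%, where 22.6% did). Among the 42 that passed in both treatments these were 8 and 2 (19.0% and 4.76%, where 19.6% and 19.0% of the 10910 such gene models did), with a median log2 change of 0.11 beside 0.00 over those models. At stage 3 the members that passed in 1 treatment alone were 13 on each side. There the groups did not overlap in 14 members that were higher after knockdown and 12 that were lower (19.4% and 16.7%, where 19.4% and 19.7% of all gene models did not), and at stage 2 in 8 and 3 (19.5% and 7.32%, where 16.3% and 16.4% did not).

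**Figure D4:**
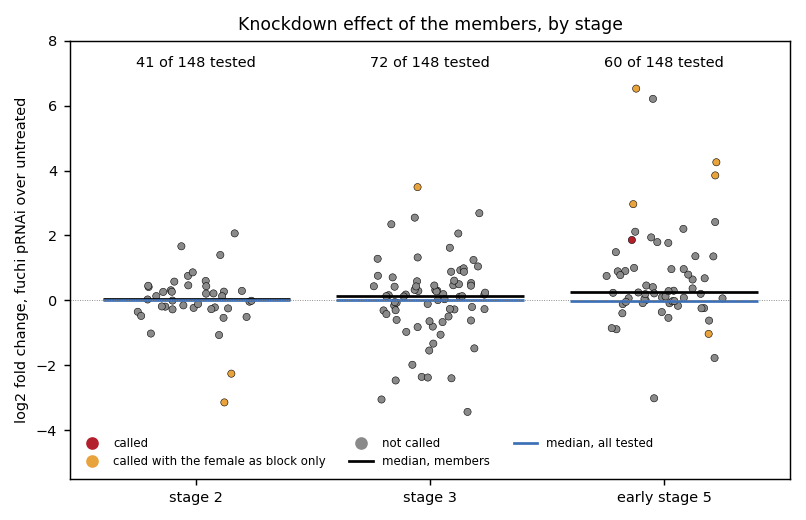
Log2 fold change of *fuchi* pRNAi over untreated (vertical axis) for each tested member at each stage; red marks members called by the quasi-likelihood test, orange those called with the female as a block alone, black and blue lines the medians of members and of all gene models tested. At early stage 5 the medians were 0.26 and -0.01.

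The member called at early stage 5 was the zinc finger homeobox 4-like model g25763, of a family of large zinc finger and homeodomain proteins that act in neurons and muscle of flies and mice. It lies on scaffold 121 (Ptep_1.0, positions 1633649 to 1722888, minus strand). Untreated libraries held 181 and 89 counts of it and *fuchi* pRNAi libraries 632 and 354, or 18.5 ± 6.37 and 67.3 ± 4.49 CPM (SD, n = 2). Both knockdown values lay above both untreated ones, and the log2 change was 1.86 ± 0.29 (adjusted p = 0.00668, edgeR). The call rested on the fit: without the first *fuchi* pRNAi library the log2 change was 1.80 with an adjusted p of 0.0260, and in the 12-library fit 1.93 with 0.0175. At stage 2 it had 192 and 166 untreated against 267 and 373 counts (adjusted p = 0.983), and at stage 3 the groups overlapped with 204 and 311 against 238 and 329. A second zinc finger homeobox 4-like model, g26127, on scaffold 140, had 3 and 0 against 18 and 1 counts at early stage 5, carried by female 1.

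Of the 5 further members called at early stage 5 with the block, 4 were higher and near the floor in untreated embryos. These 4 (g13427, g15595, g773 and g4533) reached 1 CPM at early stage 5 in *fuchi* pRNAi embryos alone. They entered the test through the group where they were high, so their p-values are a description. Cut-like 2 (g13427), of the family of fly cut, which acts in sense organs, had 1 and 2 untreated counts and 26 and 33 in *fuchi* pRNAi embryos. The ratio of the summed counts was 19.3 (95% counting interval 6.30 to 96.4; adjusted p = 0.0164, and 1.36e-05 with the block), and DESeq2 and the 12-library fit called it too. Both females rose. At stages 2 and 3 this model had 11 and 10, then 11 and 22 untreated counts, so that the untreated early stage 5 libraries were its lowest.

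The ultrabithorax-like g15595, of the fly gene for the hind part of the thorax, had 0 and 0 against 11 and 11 counts at early stage 5, at least 7.21-fold higher with 3 counts over the untreated group as the floor (adjusted p = 0.0744, and 0.00426 with the block). The untreated stage 3 libraries held 6 and 3 counts of it. An unc-4 homolog, g773, named for a regulator of motor neurons in the worm, had 1 and 4 against 28 and 15 counts (log2 change 2.96 ± 0.83, adjusted p = 0.0950, and 0.00389 with the block), and its change was 2.19 without the first and 4.36 without the second untreated library. Both members had higher *fuchi* pRNAi than untreated values in each female. Retinal homeobox Rx1 (g9070), of an eye and forebrain gene in vertebrates, had 0 and 0 against 10 and 8 counts (at least 5.90-fold higher, quasi-likelihood adjusted p = 0.107) and was called by the likelihood ratio test and without the filter on low counts. It too reached 1 CPM at early stage 5 in *fuchi* pRNAi embryos alone. The lower member with the smallest p after g27748 was a Pax-1-like model, g26228, with 11 and 22 against 2 and 2 counts (adjusted p = 0.119, edgeR). This model reached 1 CPM at early stage 5 in untreated embryos alone, so its p is a description as well.

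The one member called lower with the block was the extradenticle-like g27748, with 756 and 623 untreated counts against 358 and 303 after knockdown, or 96.9 ± 1.27 and 47.4 ± 10.6 CPM. The log2 change was -1.04 ± 0.25 (adjusted p = 0.0533, and 0.00102 with the block), and the likelihood ratio test and DESeq2 called it. The models that share its NCBI entry did less: g27747, which lies before it on scaffold 233, had 500 and 259 against 323 and 197 counts (log2 change -0.54 ± 0.28), and g13538, on another scaffold, had 409 and 281 against 439 and 177 (-0.24 ± 0.28). Neither was called, and whether the models differed among themselves was not tested.

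The MSX-2-like model g4533, of the family of fly muscle segment homeobox, changed in opposite directions at the first and the last stage. In untreated embryos it had 66 and 97 counts at stage 2, 7 and 12 at stage 3 and 1 and 1 at early stage 5. In *fuchi* pRNAi embryos it had 11 and 8, then 7 and 6, then 21 and 12 counts. The knockdown value was below the untreated one in both females at stage 2, below it at stage 3 by less than the error (log2 change -0.82 ± 0.89), and above it in both females at early stage 5. At stage 2 the levels were 11.4 ± 5.23 and 1.27 ± 0.13 CPM (log2 change -3.15 ± 0.56, adjusted p = 0.983 without and 7.69e-08 with the block). At early stage 5 the ratio of summed counts was 16.2 (95% counting interval 4.15 to 139; adjusted p = 0.0477 without and 0.00347 with the block).

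Because g4533 had the smallest p in both designed differences, its effect at early stage 5 was also set against that at stage 2, a contrast chosen after its values were seen. The difference was 7.07 ± 0.98 on the log2 scale (adjusted p = 0.00258 over 14498 gene models, edgeR, 12 libraries). It was the single gene model called higher in that contrast, or 0.00690% of all, beside 0.497% called lower (with the block 0.0621% and 1.04%, g4533 again the single member among them). The untreated stage 2 and early stage 5 libraries enter both the fall and the rise, so the values of each library stand above. With 1 of the 8 libraries left out the difference was 6.54 to 7.46, and the adjusted p was between 0.00583 and 0.0208. It stayed under 0.01 only without the first untreated stage 2 library.

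Beside g4533, the TGIF2LX-described model g11579 was called lower at stage 2 with the block. TGIF proteins are TALE repressors that restrain TGF-beta signals in vertebrates. Untreated libraries held 55 and 203 counts of it and *fuchi* pRNAi libraries 19 and 38 (log2 change -2.26 ± 0.78, adjusted p = 0.983 without and 1.29e-05 with the block). Without the second untreated library the log2 change was -0.71, and it was -3.00 without the first untreated or the second *fuchi* pRNAi library. Female 2 was higher in both treatments. At stage 3 the model had 18 and 50 against 16 and 14 counts, and at early stage 5 7 and 2 against 17 and 7. The other stage 2 members with small p were g25763 and g7582, given above, and the Mix.2-like model g27124 with 9 and 5 against 38 and 8 counts (adjusted p = 0.983, edgeR).

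At stage 3 the member called with the block was BarH-like 1 (g8698), of the family of the fly Bar genes for eye and sense organs, with 1 and 2 against 29 and 16 counts. The ratio of summed counts was 12.3 (95% counting interval 3.95 to 61.8; adjusted p = 0.211 without and 0.00442 with the block). No other group of this model exceeded 3 counts in a library. At stage 3 it reached 1 CPM in *fuchi* pRNAi embryos alone, so these values too are a description. The zinc finger homeobox 3-like model g11268, the member with the most counts, had 2780 and 2784 untreated and 7151 and 5623 *fuchi* pRNAi counts at stage 3, or 434 ± 48.1 and 826 ± 101 CPM. Its log2 change of 0.93 ± 0.24 was nearly the same in both females (0.91 and 0.94) but was not called (adjusted p = 0.182, and 0.0136 with the block). Its groups overlapped at early stage 5. The slou model g11040, of a fly muscle identity gene, had 12 and 10 against 3 and 2 counts at stage 3 (adjusted p = 0.488). It reached 1 CPM there in untreated embryos alone, so this p is a description.

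**Figure D5:**
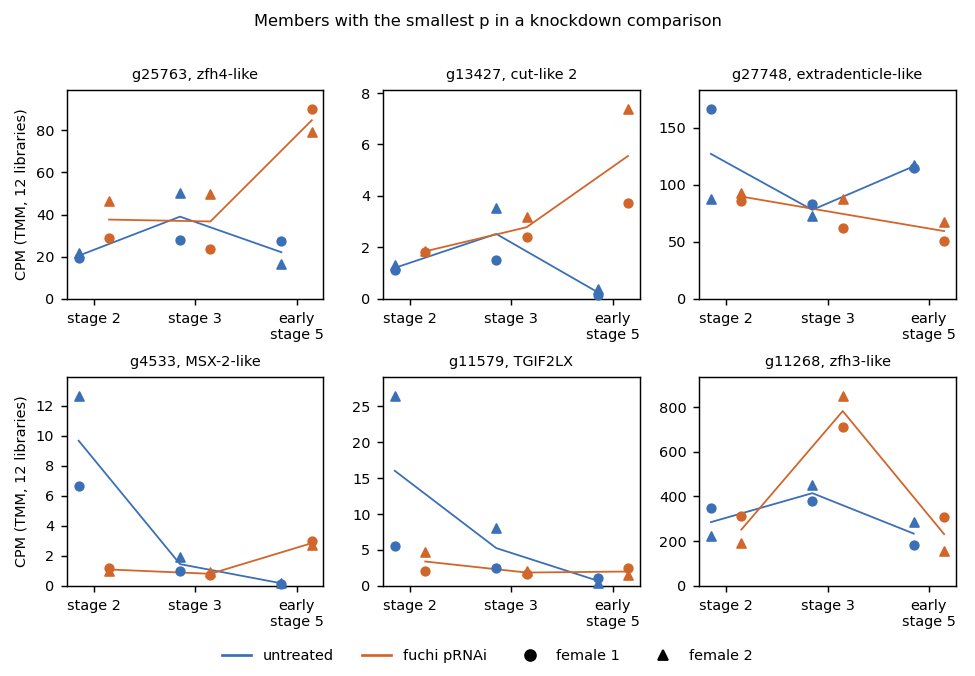
CPM with TMM factors of the 12 libraries (vertical axis, linear) for 6 members with small p in a knockdown comparison; blue is untreated, orange *fuchi* pRNAi, circles female 1, triangles female 2, lines join group means. The lines of g4533 cross, with 66 and 97 untreated against 11 and 8 counts at stage 2 and 1 and 1 against 21 and 12 at early stage 5.

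In 0 of 82 members did all 6 libraries of one female lie above all 6 of the other, where 0.193% of all tested gene models did for female 1 and 0.269% for female 2. A pair of members that shared an NCBI entry was higher in female 2 at the later stages. The homeobox protein 2-like models g27943 and g24804 carry 1 NCBI entry. In female 2, g27943 had 26 and 64 untreated and 17 and 30 *fuchi* pRNAi counts at stages 3 and early 5, where female 1 had 3 and 0, and 4 and 3. For g24804 the same libraries held 14 and 29, and 6 and 8 counts in female 2, and 2 and 0, and 0 and 0 in female 1. Neither model was called in a knockdown comparison.

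Of the 6 models left out, described as OTX2-A-like (g9172), Hox-A1-like (g7954), MSH-D-like (g15189), B-H1 (g8250), gooseberry (g18397) and prospero (g15298), g15298 was called at early stage 5, with 27 and 10 untreated against 135 and 112 *fuchi* pRNAi counts (log2 change 2.78 ± 0.42, adjusted p = 0.00479). g9172 had 855 and 396 against 567 and 57 counts there, lower in both females (log2 change -1.20 ± 0.65, adjusted p = 0.519 without and 1.23e-05 with the block). Its groups overlapped, and the log2 change was -0.78 in female 1 and -2.56 in female 2.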

How the data were processed

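Poly(A) RNA of whole *P. tepidariorum* embryos was sequenced single-end on a MiSeq. The deposited counts are reads per AUGUSTUS gene model of the Ptep_1.0 assembly, counted by the authors with HTSeq 0.6.1p1. The aligner and strand setting for these reads follow an earlier study (not given in the sources used here), and reads of near-identical copies cannot be assigned. The deposited RPKM values are the authors' length-scaled levels and were used for levels between genes and as an alternative with limma. The reference gene table is of another assembly, and no sequence is shown.

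Each stage (4 libraries) was fitted with edgeR 4.0.16 in R 4.3.3: a filter of 1 CPM in 1 library or more, TMM, quasi-likelihood F test, Benjamini-Hochberg adjusted p under 0.01 over all models. Changes between stages (glmTreat, 2-fold) and differences of the knockdown effect used 1 fit of 12 libraries. SE is the log2 change over the root of F. Folds against 0 counts use 3 counts over the group, and those against 1 to 3 counts an exact 95% interval. Alternatives were RLE factors, no filter, DESeq2 1.42.0, the likelihood ratio test, the 12-library fit, limma 3.58.1 on log2(RPKM + 1) and log2(RPKM + 0.1), the female as block and each library left out. The fits were also run on simulated counts. Changes were placed there in the more abundant gene models, and no female effect was simulated. That run therefore does not cover scarce members or the pairing by female.

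Replicate numbers mark females, per the labels. Deviations from group means of a female's untreated and pRNAi libraries correlated with 0.566, 0.456 and 0.411 at stages 2, 3 and early 5. Library totals were 6967313 or more in female 1 and 6737404 or less in female 2, so female and depth cannot be told apart. Within a stage the block leaves a single residual degree of freedom per gene model, so its p leans on spread pooled over models. Within groups, libraries differed beyond counting noise (mean chi-square 28.0 to 44.1 per model). Named were members called in a knockdown comparison, with or without the block, those with the smallest p where fewer than 5 were called, the 5 highest in untreated RPKM per stage, those called between stages and the Hox models that passed the filter. The models g26127, g27943, g24804, g9070 and g26228 and the Hox models under the filter were chosen after their values were seen. The members, classes and lists were chosen with earlier results of these data known. Columns of 2 tables mapped to the 12 samples, and 0 were left unmapped.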

Additional observations from a re-analysis of the deposited data

Results flagged for a closer look

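The knockdown effect on the MSX-2-like model g4533 differed between stages: it was 7.07 ± 0.98 higher on the log2 scale at early stage 5 than at stage 2 (adjusted p = 0.00258 over all gene models tested, edgeR, 12 libraries). *fuchi* pRNAi counts were lower in both females at stage 2 and higher in both at early stage 5. The contrast was added after the values were seen, and the early stage 5 side rests on counts of 1 and 1 against 21 and 12.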

How the results depend on the processing

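With the female as block, 2, 1 and 6 members were called in the knockdown comparisons at stages 2, 3 and early 5, in place of 0, 0 and 1, and 14, 11 and 4 in place of 7, 6 and 2 for untreated stage 2 to 3, knockdown stage 2 to 3 and knockdown stage 3 to early 5. Without the filter on low counts the calls were 2 at stage 2 and 7 at early stage 5, then 15 and 10 for the untreated steps (main 7 and 3), 12 and 7 for the knockdown steps, and 2 for the difference of early stage 5 minus stage 3. At early stage 5 DESeq2 called 3 and the likelihood ratio test 7. With 1 library left out, the calls ranged from 0 to 1 at early stage 5 (0 without the first *fuchi* pRNAi library), 2 to 5 and 2 to 3 for the untreated steps, and 3 to 6 and 2 to 4 for the knockdown steps. The low values were 2 without the first untreated stage 2 library, 4 without either untreated stage 3 library and 3 without the first *fuchi* pRNAi stage 2 library, and the high value of 4 was without the first *fuchi* pRNAi stage 3 library. Calls over all gene models were not counted without the filter or with a library left out. Those member counts therefore have no background beside them. Why the calls moved was not tested. The direction did not change in the alternatives run for the 35 member results that were called or had small p, and other named members were not refitted. The call of g25763 was lost with limma on log2(RPKM + 1) (adjusted p = 0.0347) and on log2(RPKM + 0.1) (0.0417). That of g14840 from untreated stage 2 to 3 was lost with DESeq2 (adjusted p = 0.0375).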
